A study of Labeotropheus fuelleborni and Maylandia zebra with 12 samples.

Results

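The genes described here are the translation initiation and elongation factors, the proteins that bring messenger RNA, initiator tRNA and ribosomal subunits together and then drive the ribosome along the message. They were taken as every feature of the deposited count table whose name begins with eif or eef followed by a digit. This gave 49 of 26490 features, of which 43 had names beginning with eif and 6 had names beginning with eef. Some of the genes code for regulators of these factors, so this split is by name and not by function. Of the 49 genes, 47 had 15 or more counts over all libraries, and 2 had fewer, eif4ebp2 with 5 counts and eif2ak3 with 9. The filter on low counts kept 20 of the 49 for testing, with 75 to 1300 counts each, while the 27 described but not tested had 15 to 104 counts with a median of 35.0. No sequence is printed, because no reference sequence was used here. No feature named eef1a1, eef2, eif4a1, eif1, eif3c, eif3e or eif4ebp1 matched, and those genes were not analysed here.

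RNA was measured in replacement teeth and in oral epithelium carrying taste buds from 2 cichlids of Lake Malawi, the fishes Labeotropheus fuelleborni and Metriaclima zebra (spelled Metraclima in the series text). The 4 groups had 3 libraries each, 12 in all. The tooth samples were unerupted teeth dissected out of crypts in the jaw bone, and the taste bud samples were a ribbon of epithelium from the lower jaw on the lip side of the outer tooth row. The labels name no strain, genotype, age or treatment, and do not say whether animals were pooled or whether the libraries of a group came from separate animals, so that p-values rest only on how these samples varied, and this variation may be technical. Replicates are called by the numbers in the sample titles, which are, in the order in which values are listed throughout, 0, 3 and 4 for L. fuelleborni tooth, 1, 2 and 4 for L. fuelleborni taste bud, 0, 1 and 3 for M. zebra tooth and 1, 2 and 3 for M. zebra taste bud.

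Initiation in animals begins when eIF2, carrying the initiator tRNA and GTP, joins eIF1A, eIF3 and eIF5 on the small ribosomal subunit. The eIF4 factors recognise the cap of the message and unwind it, eIF5B joins the large subunit, and eIF2B reloads spent eIF2 with GTP. Kinases that phosphorylate the alpha subunit of eIF2 turn it into an inhibitor of eIF2B and so lower initiation under stress. In elongation eEF1A delivers charged tRNAs and is reloaded with GTP by the eEF1B complex, while eEF2 moves the ribosome on. In many vertebrate cells the messages of ribosomal proteins and of several of these factors are themselves under growth control through mTOR. Roles given below are those known from mammals and yeast.

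The libraries were shallow, with total counts of 72226 to 300663. On these totals 1 count stood for 3.33 to 13.8 CPM, the count scaled to a common library size. The CPM values below use TMM library sizes instead, on which 1 count in M. zebra taste bud replicate 2 stood for 14.4 CPM. Tooth libraries held 0.933 to 4.60% of their counts in tooth mineral genes and taste bud libraries 0.0121 to 0.141%. Oral keratinocyte genes took 0.0804 to 0.537% in taste bud libraries and 0.0206 to 0.0935% in tooth libraries, and the lowest taste bud value was that of M. zebra taste bud replicate 2, against 0.336 and 0.351% in replicates 1 and 3. Taste receptor genes took 0.193 to 0.352% in M. zebra taste bud, 0.0792 to 0.141% in L. fuelleborni taste bud and 0.0665 to 0.102% in tooth, so that taste bud and tooth overlapped in L. fuelleborni. All 8 mineral genes tested were higher in tooth, and all 8 keratinocyte genes were higher in taste bud. Of the taste receptor genes, trpm5 and ddc were higher in taste bud and itpr3 was higher in tooth. Of the muscle markers tested, actn3 was higher in taste bud and the other did not pass the test. Muscle markers took up to 0.0538% of tooth counts and 0.0576% of taste bud counts. The immune marker cd74 did not pass the test, and immune markers took up to 0.0758% in tooth and 0.0773% in taste bud. Erythrocyte markers took at most 0.00488% in any library. The part of cell makeup in the differences below was not tested, and in bulk samples fewer cells of a type and less RNA per cell cannot be told apart.

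The 49 genes together held 7700 counts, which made up under 1% of every library. In L. fuelleborni the tooth libraries held 0.340, 0.275 and 0.565% and the taste bud libraries 0.412, 0.306 and 0.403%. In M. zebra the tooth libraries held 0.393, 0.391 and 0.472% and the taste bud libraries 0.309, 0.214 and 0.312%. Within M. zebra every tooth library lay above every taste bud library, while the tissues overlapped in L. fuelleborni, where tooth replicate 4 was the highest of all 12 libraries. With the most abundant feature of the table, LOC105941146, left out of the totals, the M. zebra separation ended, since taste bud replicate 3 then held 0.398% and tooth replicates 0 and 1 held 0.393 and 0.392%. The L. fuelleborni means then stood in the opposite order, at 0.394% in tooth and 0.474% in taste bud. They also did so on TMM library sizes (0.355 and 0.436%) and without eef1g (0.308 and 0.338%), where the M. zebra libraries of the tissues did not overlap.

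The group means were 0.393% ± 0.152 (SD, n = 3) in L. fuelleborni tooth and 0.374% ± 0.0586 (SD, n = 3) in L. fuelleborni taste bud. They were 0.419% ± 0.0464 (SD, n = 3) in M. zebra tooth and 0.278% ± 0.0556 (SD, n = 3) in M. zebra taste bud. No test was made on the summed share. The exact (Clopper-Pearson) 95% interval of a single library ran from 0.538 to 0.592% in the highest library and from 0.184 to 0.248% in the lowest. Both lay apart from the intervals of the other replicates of their group. Closer replicates had intervals that overlapped, as in M. zebra taste bud replicates 1 (0.270 to 0.352%) and 3 (0.280 to 0.347%). These intervals cover counting error only. The share of 72 ribosomal protein genes varied more widely. It was highest in 3 libraries, taste bud replicates 1 and 2 and tooth replicate 4 of L. fuelleborni. The share was 6.59% in L. fuelleborni tooth replicate 4 against 2.51 and 2.53% in its companion libraries. The taste bud libraries of that species had 6.63, 4.18 and 3.19%. In M. zebra it lay between 1.96 and 2.87% in tooth and between 1.41 and 2.26% in taste bud. The library with the lowest translation factor share, M. zebra taste bud replicate 2, also had the lowest ribosomal share, and 25 of the 49 genes had no count in it.

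**Figure D1:**
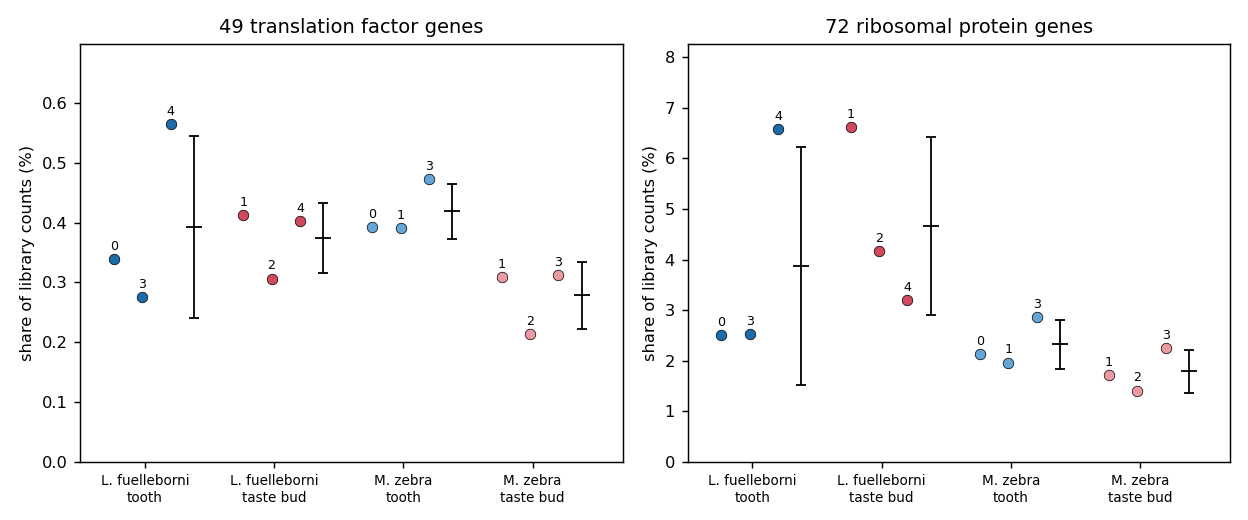
Share of library counts (%) in the 49 translation factor genes (left) and in 72 ribosomal protein genes (right), with 1 point per library labelled by its replicate number and the group mean ± SD (n = 3) beside the points. Both axes start at 0. The 3 M. zebra tooth libraries sit at 0.391 to 0.472%, above the 3 M. zebra taste bud libraries at 0.214 to 0.312%, and L. fuelleborni tooth replicate 4 lies above the other 2 libraries of its group in both panels.

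The genes with the most counts took different proportions of the sum in the 2 tissues, given here without a test. The heme-regulated kinase gene eif2ak1 supplied 10.5% ± 3.14 (SD, n = 3) of the translation factor counts in L. fuelleborni tooth and 10.5% ± 2.96 (SD, n = 3) in M. zebra tooth. In taste bud it supplied 18.0% ± 8.94 (SD, n = 3) in L. fuelleborni and 34.3% ± 13.6 (SD, n = 3) in M. zebra, and it reached 50.0% in M. zebra taste bud replicate 2. The elongation factor subunit gene eef1g supplied 22.1% ± 3.79 and 22.3% ± 3.38 (SD, n = 3 each) in L. fuelleborni and M. zebra tooth, against 9.62% ± 2.62 and 7.43% ± 4.56 (SD, n = 3 each) in the taste bud groups. Without eif2ak1 the mean share was 0.355% in L. fuelleborni tooth, 0.306% in L. fuelleborni taste bud, 0.376% in M. zebra tooth and 0.188% in M. zebra taste bud.

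Over both species, 6 of the 20 tested genes (30%) differed between tooth and taste bud by edgeR's quasi-likelihood test at an adjusted p under 0.05, where 52.8% of all 2962 genes tested did. The genes eef1g, eif1ax and eif3g were higher in tooth, 15% of the 20 beside 32.6% of all genes. The genes eif1ad, eif2ak1 and eif6 were higher in taste bud, 15% beside 20.2%. Of these 6 genes, eif1ax and eif3g passed the filter on low counts only through tooth, and eif1ad and eif6 only through taste bud. In each case this was the tissue where the gene was high. How many of all genes passed in this way was not counted. The median log2 fold change (log2FC, tooth minus taste bud) was 0.22 over the 20 genes and 0.21 over all genes. Replacing the TMM scaling by DESeq2 size factors moved the median of all genes to 0.41, a shift of 0.20, and moved no gene named as different here to the other direction. In the remaining 14 tested genes the log2FC ran from -0.70 to 1.19 with SE of 0.37 to 0.73, and their adjusted p-values from 0.102 to 0.941.

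In tooth against taste bud within L. fuelleborni 2 of the 20 genes (10.0%) passed, beside 38.6% of all genes, with eif1ax higher in tooth and eif1ad higher in taste bud. Without L. fuelleborni tooth replicate 4 the count was 6 of the 21 translation factor genes then tested, beside 1275 of all 3396 genes. All 6 were higher in taste bud (eef1b2, eif1ad, eif2b4, eif2s3, eif3a and eif5b), and eif2b4 was not among the 20. How many of the 1275 genes were higher in taste bud was not counted. Without M. zebra taste bud replicate 2 the count was 4 of 25, beside 1387 of 3728 genes. Without L. fuelleborni taste bud replicate 2 the count was 1 of 22, beside 1027 of 3543 genes. Within M. zebra 5 of the 20 (25.0%) passed, beside 42.6% of all genes. These were eef1g, eif1ax and eif3g, higher in tooth, and eif1ad and eif2ak1, higher in taste bud. The count was 2 of 25 without M. zebra taste bud replicate 2, beside 1107 of 3728 genes. It was 3 of 23 without M. zebra tooth replicate 3, beside 1089 of 3437 genes. The median log2FC of the 20 genes was -0.44 in L. fuelleborni and 0.61 in M. zebra, where the medians of all genes were 0.12 and 0.31. The tissue differences of the 2 species were compared directly by the interaction term. It called 0 of the 20 genes and 0 of 2962 genes (0.0%) with edgeR and 0 with DESeq2. At an unadjusted p under 0.05 the edgeR interaction term held 0 of the 20 and 228 of all genes, and the smallest adjusted p among the 20 was 0.675. All libraries of tooth lay above those of taste bud in both species for 1 of the 20 genes (eif1ax), beside 22.7% of all genes. The opposite order held for 2 of the 20 genes (eif1ad and eif2ak1), beside 11.8% of all genes. For 8 of the 20 the tissues overlapped in both species, and this was not counted over all genes.

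**Figure D2:**
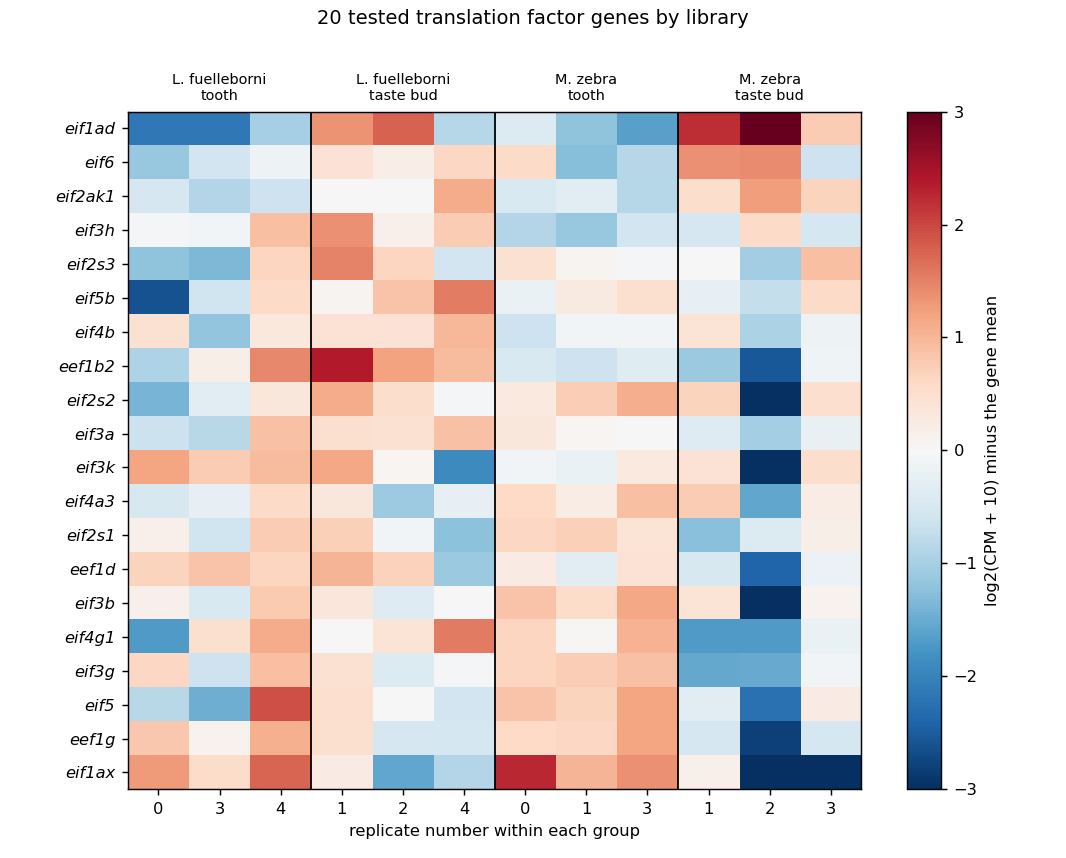
Log2(CPM + 10) minus the gene's mean over the 12 libraries (colour) for the 20 tested genes (rows) in every library (columns, by group). The rows of eif1ax and eif1ad run in opposite directions between tooth and taste bud columns, and the eef1g row is lowest in M. zebra taste bud replicate 2.

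**Figure D3:**
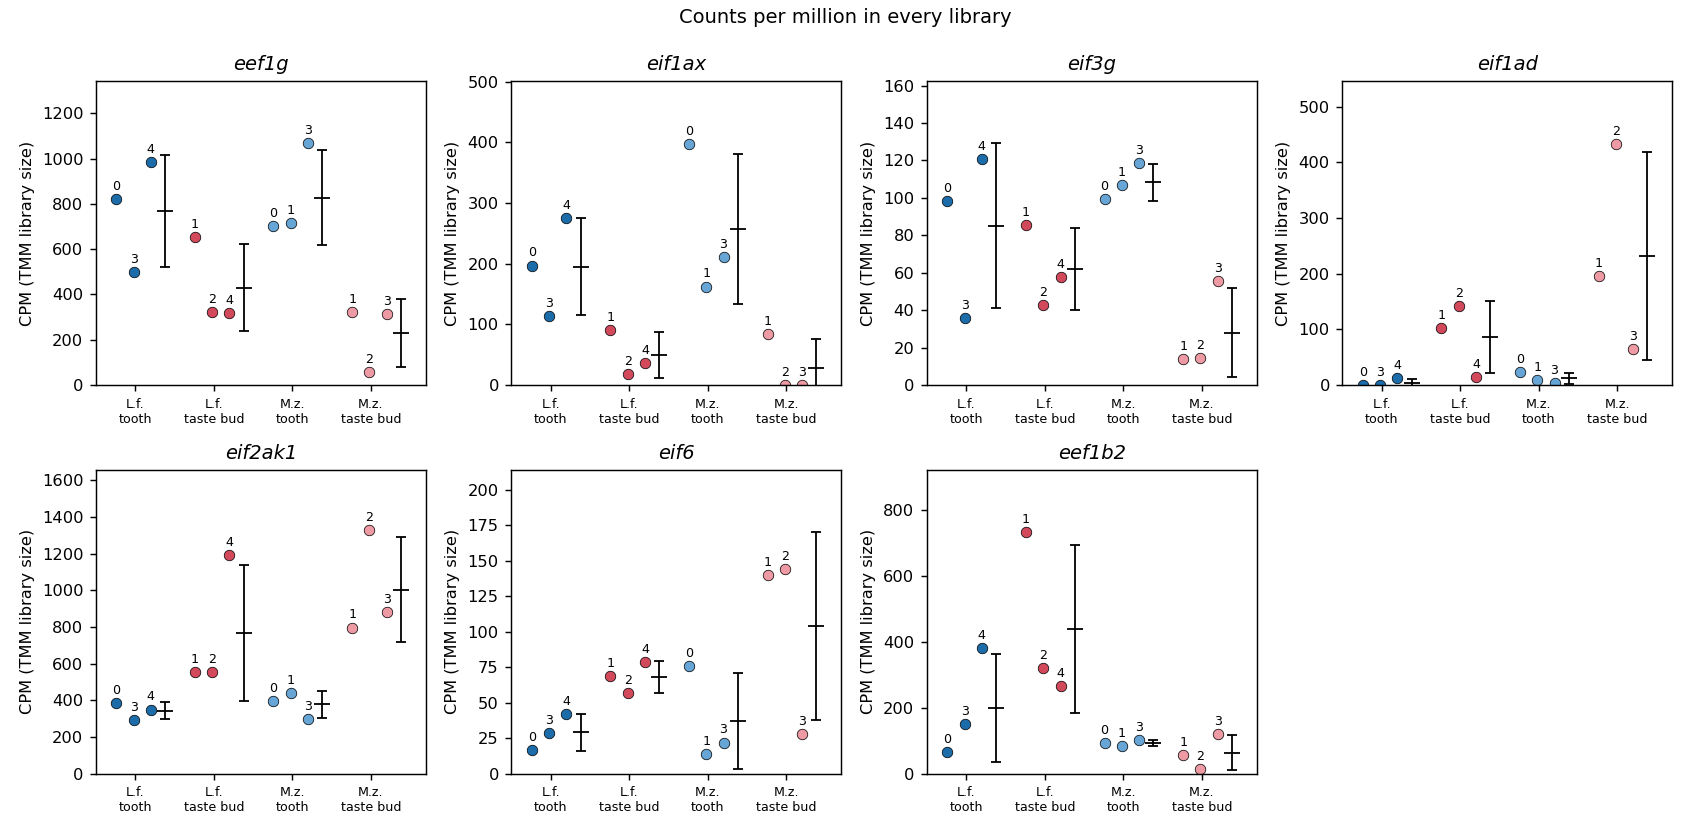
CPM on TMM library sizes in every library for the 7 genes past the threshold in the tissue difference or in a species difference, 1 panel per gene, with group mean ± SD (n = 3, bars cut at 0) beside the points. In both species the tooth points of eif1ax lie above its taste bud points and the taste bud points of eif1ad and eif2ak1 lie above their tooth points.

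The eEF1B subunits made up the largest role group by counts, 1879 over 3 genes, all tested. eEF1B is the exchange complex that recharges eEF1A, with eef1b2 and eef1d coding for catalytic subunits and eef1g for the structural gamma subunit. The eef1g gene had the most counts of the 49, 1300 in all. Its CPM in L. fuelleborni was 821, 501 and 984 for tooth against 651, 321 and 316 for taste bud. In M. zebra it was 700.3, 715 and 1068 for tooth against 322, 57.8 and 315 for taste bud. All M. zebra tooth libraries lay above all M. zebra taste bud libraries, while in L. fuelleborni taste bud replicate 1 lay above tooth replicate 3. The eef1g log2FC over both species was 1.33 (SE 0.38, edgeR adjusted p = 0.00414), with 1.82 (SE 0.55, edgeR adjusted p = 0.0094) in M. zebra and 0.84 (SE 0.52, edgeR adjusted p = 0.211) in L. fuelleborni. The call in M. zebra was lost without M. zebra taste bud replicate 2, with an edgeR adjusted p of 0.0878.

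The catalytic subunit gene eef1b2, with 463 counts, did not pass the test between tissues. The L. fuelleborni CPM values were 65.7, 150.2 and 380.3 for tooth against 731, 321 and 266 for taste bud. The M. zebra values were 93.4, 83.5 and 101 for tooth against 55.9, 14.4 and 121 for taste bud. The tissues overlapped in both species, and every L. fuelleborni taste bud library lay above every M. zebra taste bud library. Between tissues the eef1b2 log2FC was -0.32 (SE 0.46, edgeR adjusted p = 0.582), and without M. zebra taste bud replicate 3 it was 0.08. The third subunit gene eef1d had a tissue log2FC of 0.66 (SE 0.53, edgeR adjusted p = 0.311).

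The species difference of eef1b2 in taste bud was the 1 difference between species that passed among the 20 genes (5.0%, beside 4.29% of all genes in either direction and 2.03% higher in L. fuelleborni). Its log2FC, L. fuelleborni minus M. zebra, was 2.69 (SE 0.69, edgeR adjusted p = 0.0200), and in tooth it was 1.14 (SE 0.62, edgeR adjusted p = 0.645). The call was lost in 3 of the 12 fits that left out 1 library, namely without replicate 1 of L. fuelleborni taste bud or without replicate 1 or 2 of M. zebra taste bud (edgeR adjusted p 0.104 to 0.125). The ribosomal protein share was also higher in L. fuelleborni taste bud than in M. zebra taste bud, 3.19 to 6.63% against 1.41 to 2.26%. With that share as a covariate the eef1b2 species log2FC in taste bud was 1.27 (edgeR adjusted p = 0.470). It was 2.07 when the 3 libraries richest in ribosomal messages were left out. That fit kept 1 L. fuelleborni taste bud library, so its effect sizes are given without p-values here and below. What either value says of the cause was not tested.

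Between species in tooth, 0 of the 20 genes passed with edgeR and 0 with DESeq2, beside 1.52% of all genes with edgeR. At an unadjusted p under 0.05 there was 1 gene, eif3h, a subunit of eIF3, with a log2FC of 1.39 (SE 0.60, edgeR adjusted p = 0.393). In taste bud the log2FC between species was positive, meaning higher in L. fuelleborni, in 16 of the 20 genes, with a median of 0.69 beside 0.07 for all genes. In tooth it was positive in 5 of the 20. Signs were not counted over all genes, so these counts have no share to set beside them. Of the 20 only eef1b2 passed, and 25 of the 49 genes had no count in M. zebra taste bud replicate 2.

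**Figure D4:**
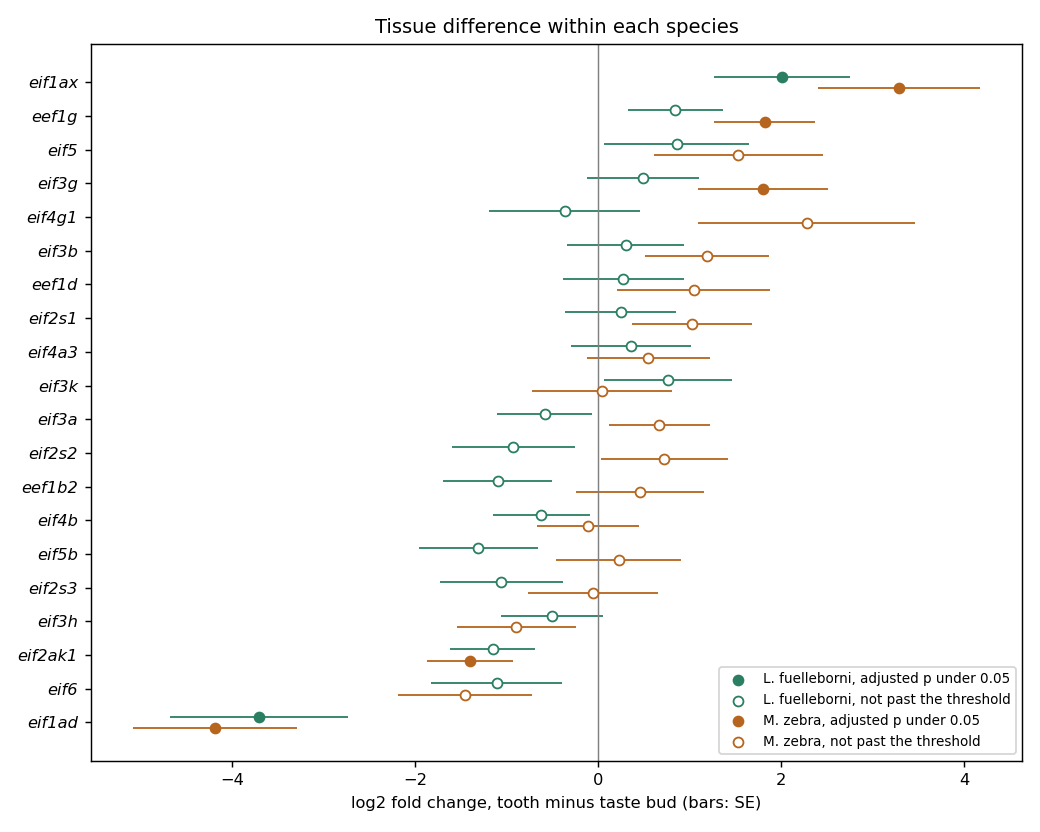
Log2 fold change of tooth minus taste bud with its SE (horizontal axis) for the 20 tested genes (rows) in L. fuelleborni and in M. zebra. The sign was the same in both species for 15 of the 20 genes, and this was not counted over all genes. The bars of eif1ax and eif1ad lie on opposite sides of 0 in both species.

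The factor eIF1A is needed for scanning and start site selection on the small subunit, and eif1ax codes for it. The gene eif1ax had 131 and 151 counts in L. fuelleborni and M. zebra tooth, against 25 and 6 in L. fuelleborni and M. zebra taste bud. Its CPM in L. fuelleborni was 197, 114 and 275 for tooth against 91.4, 18.9 and 35.9 for taste bud. In M. zebra it was 397, 162 and 211 for tooth, and in taste bud it was 83.9 in replicate 1, with no count in replicates 2 and 3. All tooth libraries lay above all taste bud libraries, also across species. Summed over both species the eif1ax level was 5.83 times as high in tooth (95% counting interval 4.02 to 8.75). The log2FC was 2.65 (SE 0.58, edgeR adjusted p = 0.000342) over both species, 2.01 (SE 0.74, edgeR adjusted p = 0.0325) in L. fuelleborni and 3.29 (SE 0.88, edgeR adjusted p = 0.00400) in M. zebra.

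The gene eif1ax passed the filter on low counts only through tooth, the tissue where it is high. Its tissue call over both species held in all 18 alternatives, among them the fit with no filter. Its size rested on M. zebra taste bud replicate 1, without which the log2FC was 5.21 over both species and 8.46 in M. zebra, where the remaining taste bud libraries had no count, and a fitted value against libraries at 0 is no bound. Within L. fuelleborni the call was lost in 4 of the 12 fits that left out 1 library (edgeR adjusted p 0.0585 to 0.157). They were those of tooth replicates 0 and 4 and taste bud replicates 2 and 4. The log2FC in L. fuelleborni was 1.99 when the 3 libraries richest in ribosomal messages were left out.

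The gene eif1ad codes for a protein with an eIF1A-like domain whose role is less well described, so that its place among initiation factors rests on its name. It ran the other way to eif1ax. Its counts in L. fuelleborni were 0, 0 and 4 for tooth against 18, 30 and 2 for taste bud. In M. zebra they were 4, 2 and 1 for tooth against 14, 30 and 7 for taste bud. In CPM the taste bud libraries ranged from 14.4 to 142 in L. fuelleborni and from 64.9 to 433 in M. zebra, and the tooth libraries from 0 to 12.1 and from 4.40 to 23.3. Within each species the groups did not overlap, and the lowest taste bud library, L. fuelleborni replicate 4, rested on 2 counts.

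Summed over both species the eif1ad level was 14.3 times as high in taste bud (95% counting interval 7.67 to 29.6). The log2FC was -3.95 (SE 0.66, edgeR adjusted p = 1.38e-05) over both species, -3.71 (SE 0.97, edgeR adjusted p = 0.00319) in L. fuelleborni and -4.19 (SE 0.89, edgeR adjusted p = 0.00054) in M. zebra. No tooth library came near the minimum count of 10, so eif1ad passed the filter on low counts only through taste bud, the tissue where it is high. The call over both species held in all 18 alternatives. In every one except the fit with no filter, eif1ad again passed the filter only through taste bud. The log2FC in L. fuelleborni was -6.80 without tooth replicate 4, the one library of that group with counts, again a fitted value against libraries at 0. It was -4.20 when the 3 libraries richest in ribosomal messages, tooth replicate 4 among them, were left out.

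The kinase gene eif2ak1 codes for the heme-regulated inhibitor, which phosphorylates eIF2 alpha when heme is low and in mammals also under mitochondrial stress. It had 1059 counts. The L. fuelleborni CPM values were 386, 293 and 350.1 for tooth against 554, 553 and 1192 for taste bud. The M. zebra values were 397, 441 and 299 for tooth against 797, 1329 and 881 for taste bud. Every taste bud library lay above every tooth library, also across species, and L. fuelleborni taste bud replicate 4 and M. zebra taste bud replicate 2 were the highest. The kinase is best known from red cell precursors. Erythrocyte markers (2 genes in the table, with 24 tooth counts and 15 taste bud counts) took at most 0.00488% of any library, and none was tested. Whether red cells had a part in the eif2ak1 difference was not tested.

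The eif2ak1 log2FC was -1.28 (SE 0.33, edgeR adjusted p = 0.00183) over both species, and that call held in all 18 alternatives. It was -1.40 (SE 0.47, edgeR adjusted p = 0.0176) in M. zebra, and this call was lost without M. zebra tooth replicate 0 or 3 or taste bud replicate 2 (edgeR adjusted p 0.0591 to 0.133). In L. fuelleborni it was -1.15 (SE 0.47, edgeR adjusted p = 0.0507). The call there was gained without replicate 1 of L. fuelleborni taste bud (edgeR adjusted p = 0.0381) or replicate 2 of M. zebra taste bud (0.0394). It was also gained in the fit that took ribosomal share as a covariate (0.0173). The log2FC in L. fuelleborni was -1.90 when the 3 libraries richest in ribosomal messages were left out.

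The other kinases of eIF2 alpha were too low to test. The amino acid sensor gene eif2ak4 had 17 tooth counts and 14 taste bud counts, a ratio of tooth to taste bud of 0.779 (95% counting interval 0.361 to 1.71). The endoplasmic reticulum kinase gene eif2ak3 had 8 and 1 counts, a ratio of 5.13 (0.688 to 228).

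The substrate of these kinases, eIF2, was measured through eif2s1, eif2s2 and eif2s3, which code for its alpha, beta and gamma subunits. None of the 3 passed the test between tissues. The eif2s1 log2FC was 0.63 (SE 0.45, edgeR adjusted p = 0.241), and its M. zebra tooth libraries, 110 to 139 CPM, lay above those of taste bud, 28.0 to 92.7 CPM. The eif2s2 log2FC was -0.10 (SE 0.48, edgeR adjusted p = 0.88), and the eif2s3 log2FC was -0.56 (SE 0.49, edgeR adjusted p = 0.35). The sign of eif2s2 was positive under DESeq2 size factors, with a log2FC of 0.09. The share of the 3 genes together averaged 0.0254 and 0.0438% in L. fuelleborni and M. zebra tooth and 0.0305 and 0.0234% in the corresponding taste bud groups.

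The exchange factor eIF2B is built of subunits coded by eif2b1 to eif2b5, of which none reached the filter, with 19 to 90 counts each. Apart from eif2b4 they had ratios of tooth to taste bud of 0.962 for eif2b1, 1.60 for eif2b2, 1.10 for eif2b3 and 1.23 for eif2b5, each with a counting interval that included 1. The delta subunit gene eif2b4 had 23 tooth counts and 67 taste bud counts, a level 4.54 times as high in taste bud (95% counting interval 2.79 to 7.64). Its counts in L. fuelleborni were 0, 0 and 10 for tooth against 20, 35 and 8 for taste bud. In M. zebra they were 3, 6 and 4 for tooth against 1, 2 and 1 for taste bud. The excess in taste bud thus came from L. fuelleborni. With no filter on low counts the eif2b4 log2FC in L. fuelleborni was -3.11 (SE 0.78, edgeR adjusted p = 0.00187 over 20692 genes). In the same fit the difference between the species in that tissue difference was -3.64 (SE 1.26, edgeR adjusted p = 0.85), so that it did not pass. The gene was singled out after its values were seen.

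The scaffold eIF3, which holds the small subunit and bridges it to the cap complex, had 11 genes with 1709 counts, of which 5 were tested. Only eif3g passed between tissues. It codes for a small RNA-binding subunit that promotes scanning in yeast. Its CPM in L. fuelleborni was 98.5, 35.8 and 121 for tooth against 85.7, 42.5 and 57.5 for taste bud. In M. zebra it was 99.2, 107 and 119 for tooth against 14.0, 14.4 and 55.6 for taste bud. The groups overlapped in L. fuelleborni and did not overlap in M. zebra. The gene passed the filter on low counts only through tooth, the tissue where it is high.

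The eif3g log2FC was 1.15 (SE 0.47, edgeR adjusted p = 0.0416) over both species, 1.80 (SE 0.71, edgeR adjusted p = 0.0422) in M. zebra and 0.49 (SE 0.61, edgeR adjusted p = 0.56) in L. fuelleborni. The call over both species held in 3 of the 12 fits that left out 1 library, those without replicate 3 of L. fuelleborni tooth, replicate 1 of L. fuelleborni taste bud or replicate 3 of M. zebra taste bud, and was lost in the other 9 (edgeR adjusted p 0.0575 to 0.125). It was also lost with no filter on low counts (edgeR adjusted p = 0.112). The log2FC over both species was 0.95 when the 3 libraries richest in ribosomal messages were left out. The call in M. zebra held in 4 of the 12, and its log2FC was 2.83 without M. zebra taste bud replicate 3.

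The largest subunit gene eif3a, with 452 counts, had a log2FC of 0.04 (SE 0.37, edgeR adjusted p = 0.941). The L. fuelleborni CPM values were 115, 100.1 and 350.1 for tooth against 263, 260.0 and 352 for taste bud. The M. zebra values were 239, 195 and 185 for tooth against 139.8, 86.7 and 158 for taste bud. In M. zebra tooth lay above taste bud, with a log2FC of 0.67 (SE 0.56, edgeR adjusted p = 0.35), and in L. fuelleborni the tissues overlapped, with -0.58 (SE 0.52, edgeR adjusted p = 0.402). Without L. fuelleborni tooth replicate 4 the eif3a log2FC over both species was -0.40 and that in L. fuelleborni -1.48 (SE 0.50, edgeR adjusted p = 0.0270).

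The other tested eIF3 genes had log2FC values of 0.75 (SE 0.46, edgeR adjusted p = 0.182) for the core subunit gene eif3b, -0.70 (SE 0.43, edgeR adjusted p = 0.173) for eif3h and 0.40 (SE 0.52, edgeR adjusted p = 0.536) for eif3k. The 6 untested eIF3 genes, eif3d, eif3f, eif3i, eif3j, eif3l and eif3m, had 34 to 89 counts and ratios of tooth to taste bud of 0.916 to 1.58, all with counting intervals that included 1. The share of the 11 eIF3 genes averaged 0.0965 and 0.0900% in L. fuelleborni and M. zebra tooth and 0.0811 and 0.0450% in the corresponding taste bud groups.

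The cap-binding eIF4 factors had 9 genes with 838 counts, of which eif4b and eif4g1 were tested. The gene eif4b, with 390 counts, codes for an activator of the eIF4A helicase. Its CPM in L. fuelleborni was 246, 71.5 and 223 for tooth against 240.0, 241 and 359 for taste bud. In M. zebra it was 111, 167 and 167 for tooth against 238, 86.7 and 158 for taste bud. The tissues overlapped in both species, and the eif4b log2FC was -0.37 (SE 0.38, edgeR adjusted p = 0.439). The scaffold gene eif4g1 had a log2FC of 0.96 (SE 0.73, edgeR adjusted p = 0.281). The related helicase gene eif4a3, whose product is a core part of the exon junction complex, had a log2FC of 0.45 (SE 0.47, edgeR adjusted p = 0.433).

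Among the 7 untested eIF4 genes, the cap-binding protein gene eif4e had 45 tooth counts and 9 taste bud counts, a level 3.21 times as high in tooth (95% counting interval 1.55 to 7.46). Its counts in L. fuelleborni were 6, 4 and 17 for tooth against 3, 1 and 4 for taste bud. In M. zebra they were 8, 3 and 7 for tooth against 0, 0 and 1 for taste bud. With no filter the eif4e log2FC over both species was 2.09 (SE 0.76, edgeR adjusted p = 0.0399 over 20692 genes). In the same fit it passed in neither species, with 1.33 (SE 0.84, edgeR adjusted p = 0.399) in L. fuelleborni and 2.84 (SE 1.27, edgeR adjusted p = 0.181) in M. zebra. The fit is given for eif4e because it passed there. The helicase gene eif4a2 had 37 and 10 counts, a ratio of 2.37 (1.16 to 5.35), and the scaffold gene eif4g3 had 17 and 3 counts, a ratio of 3.63 (1.05 to 19.4). The divergent cap-binding gene eif4e3 had 15 tooth counts and no taste bud count. Set against 3 assumed counts over the taste bud libraries, its level was 3.21 times as high in tooth. That value leaves out the counting error of the tooth counts, so it is no strict bound. Of the 15 tooth counts, the L. fuelleborni tooth libraries held 8, 2 and 4 and 1 was in M. zebra tooth replicate 3.

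Other eIF4 genes leaned less. The gene eif4e2, coding for a cap-binding repressor, had a ratio of tooth to taste bud of 0.740 (95% counting interval 0.423 to 1.30), and eif4h, coding for a partner of eIF4A, 0.855 (0.532 to 1.39). The scaffold gene eif4g2, whose product works without cap-binding eIF4E, had 53 and 51 counts, a ratio of 0.667 (0.445 to 0.999), of which 32 tooth counts came from L. fuelleborni tooth replicate 4. The gene eif4enif1, coding for a shuttling partner of eIF4E, had 15 and 7 counts, a ratio of 1.37 (0.528 to 3.98).

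Of the factors that act at subunit joining, eif5, coding for the activator of GTP hydrolysis by eIF2, had a log2FC of 1.19 (SE 0.61, edgeR adjusted p = 0.102). The L. fuelleborni tooth libraries spread from 7.15 to 169 CPM, and eif5 passed without the lowest of them, replicate 3 (edgeR adjusted p = 0.0455). Without the highest, replicate 4, its log2FC was -0.11. The gene eif5b, coding for the joining GTPase, had a log2FC of -0.54 (SE 0.47, edgeR adjusted p = 0.343). Its log2FC was -1.47 when the 3 libraries richest in ribosomal messages were left out.

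The factor eIF6 binds the large subunit, takes part in its assembly and keeps it from joining too early. The CPM of its gene eif6 in L. fuelleborni was 16.4, 28.6 and 42.3 for tooth against 68.6, 56.7 and 79.0 for taste bud. The M. zebra values were 75.9, 13.9 and 22 for tooth against 139.8, 144.5 and 27.8 for taste bud. The tissues were apart in L. fuelleborni and overlapped in M. zebra. The gene passed the filter on low counts only through taste bud, the tissue where it is high. The eif6 log2FC was -1.28 (SE 0.51, edgeR adjusted p = 0.0371) over both species, -1.11 (SE 0.72, edgeR adjusted p = 0.233) in L. fuelleborni and -1.46 (SE 0.73, edgeR adjusted p = 0.111) in M. zebra. The call was lost in 6 of the 12 fits that left out 1 library, those of L. fuelleborni tooth replicates 0 and 3, M. zebra tooth replicates 1 and 3 and M. zebra taste bud replicates 1 and 2 (edgeR adjusted p 0.0528 to 0.126), and under DESeq2 size factors (0.0810).

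Among elongation regulators, the kinase gene eef2k, whose product slows elongation by phosphorylating eEF2, had 49 tooth counts and 17 taste bud counts, a ratio of 1.85 (95% counting interval 1.05 to 3.42). Of the tooth counts, 24 were in L. fuelleborni tooth replicate 4. The gene eef2kmt, coding for a methyltransferase of eEF2, had 13 and 14 counts, a ratio of 0.596 (0.258 to 1.37). The gene eef1e1, coding for a scaffold of the tRNA synthetase complex, had 10 and 16 counts, a level 2.49 times as high in taste bud (1.06 to 6.15). The eIF5A genes eif5a and eif5a2, whose products help ribosomes past stretches that are hard to translate, had ratios of 1.76 (0.523 to 7.60) and 1.39 (0.493 to 4.46). The alternative initiator tRNA carriers were eif2a, with 9 and 15 counts and a level 2.60 times as high in taste bud (1.07 to 6.73), and eif2d, with 13 and 3 counts and a ratio of tooth to taste bud of 2.78 (0.764 to 15.2).

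**Figure D5:**
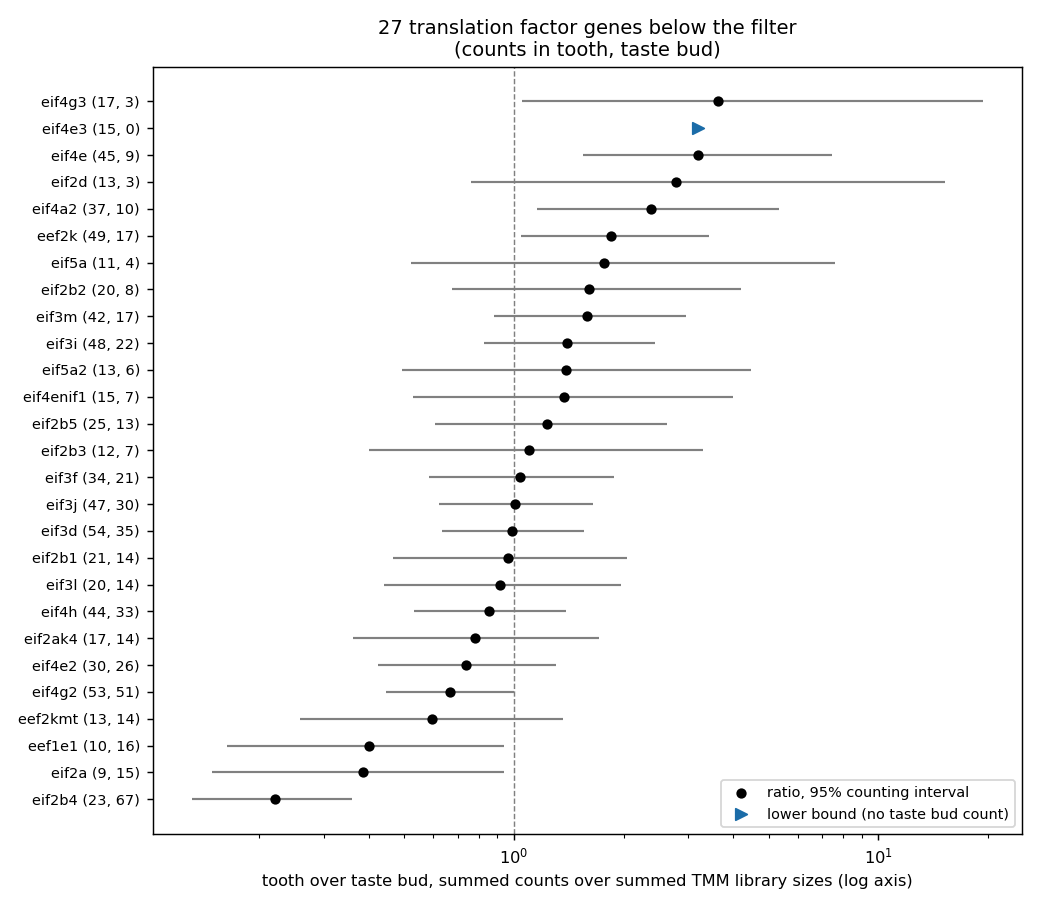
Ratio of tooth to taste bud (counts per TMM library size, each summed over the tissue) on a log axis, with 95% counting intervals, for the 27 genes below the filter, each labelled with its counts in tooth and taste bud. The interval lies above 1 for 4 genes (eif4g3, eif4e, eif4a2 and eef2k) and below 1 for 4 genes (eif4g2, eef1e1, eif2a and eif2b4). The gene eif4e3, marked as a lower bound, is drawn at its ratio against 3 assumed taste bud counts, which leaves out the counting error of its tooth counts.

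Over the 27 untested genes the mean CPM was higher in tooth in 16 and in taste bud in 11. The counting intervals carry no spread between libraries and no adjustment over genes. Of the genes whose interval excluded 1, only eif4e passed over both species in the fit with no filter. The edgeR adjusted p there was 0.136 for eif4g3, 0.109 for eif4a2 and 0.316 for eef2k. It was 0.603 for eif4g2, 0.173 for eef1e1, 0.592 for eif2a and 0.204 for eif2b4.

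Lists of partner genes were counted in the same fit, tooth against taste bud over both species. A partner gene could pass the filter on low counts only through the tissue where it is high. This is said below where the levels given show it, and it was not counted over the lists. Of the cytosolic aminoacyl-tRNA synthetase genes, which charge tRNAs for elongation, 21 were in the table, 9 were tested, and 4 were higher in taste bud and 0 in tooth (all genes tested: 20.2% and 32.6%), with a median log2FC of -1.0 beside 0.21 for all genes. They were tars (log2FC -2.75, SE 0.55, edgeR adjusted p = 0.00012), nars (-2.0, SE 0.61, 0.00691), qars (-1.54, SE 0.37, 0.000901) and eprs (-1.21, SE 0.51, 0.0467). The tars level was 18.1 ± 10.4 CPM in tooth and 135 ± 95.1 CPM in taste bud (SD, n = 6 each). At that tooth level tars passed the filter on low counts only through taste bud. Without M. zebra taste bud replicate 3 the nars call was lost (edgeR adjusted p = 0.259), and the eprs call held in 4 of the 12 fits that left out 1 library (0.0727 to 0.129 in the others). When the 3 libraries richest in ribosomal messages were left out, the log2FC was -1.64 for nars and -0.70 for eprs.

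Targets of the integrated stress response, the program that follows phosphorylation of eIF2 alpha, had 13 genes in the table, 3 tested, 2 higher in taste bud and 0 in tooth (all genes tested: 20.2% and 32.6%), with a median log2FC of -1.22. The amino acid carrier gene slc7a5 had a log2FC of -5.07 (SE 0.96, edgeR adjusted p = 8.08e-05), with 2.32 ± 5.68 CPM in tooth and 66.8 ± 51.8 CPM in taste bud (SD, n = 6 each). On 3 and 60 counts its level was 31.2 times as high in taste bud (95% counting interval 10.2 to 155). With 3 tooth counts in all, slc7a5 passed the filter on low counts only through taste bud libraries. The transcription factor gene ddit3 had a log2FC of -1.22 (SE 0.43, edgeR adjusted p = 0.0179), and its call was lost without M. zebra tooth replicate 0 or 1 (0.0511 to 0.0582). When the 3 libraries richest in ribosomal messages were left out, slc7a5 had a log2FC of -3.32 and ddit3 had -0.89. The carrier partner gene slc3a2 had 0.05 (SE 0.51, edgeR adjusted p = 0.949). Targets below the filter were not tested, and eIF2 phosphorylation itself was not measured.

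The termination and recycling list had 14 genes in the table and 4 tested, 2 of them higher in tooth and 1 in taste bud (all genes tested: 32.6% and 20.2%). The release factor genes gspt1 (log2FC 2.0, SE 0.51, edgeR adjusted p = 0.00169) and etf1 (1.5, SE 0.48, 0.0105) were higher in tooth. The release factors eRF3 and eRF1 that they code for act as a complex. The rescue factor gene pelo (-2.50, SE 0.55, edgeR adjusted p = 0.000383) was higher in taste bud. The list also held abcf1 (0.96, SE 0.49, edgeR adjusted p = 0.104), which did not pass and whose product is not known as a release or recycling factor. The gspt1 level was 132 ± 26.8 CPM in tooth and 32.0 ± 28.2 CPM in taste bud, that of etf1 97.2 ± 7.35 and 35.9 ± 21.9, and that of pelo 11.6 ± 6.92 and 74.8 ± 24.8 CPM (SD, n = 6 each). At these levels gspt1 and etf1 passed the filter on low counts only through tooth, and pelo only through taste bud. The etf1 log2FC was 1.52 when the 3 libraries richest in ribosomal messages were left out.

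A list on signalling to translation, from mTOR and from other kinases such as those of mknk2 and rps6ka3, had 24 genes in the table. Of these, 5 were tested, with 3 higher in tooth and 1 in taste bud (all genes tested: 32.6% and 20.2%). The kinase genes akt1 (log2FC 2.05, SE 0.54, edgeR adjusted p = 0.00203), mknk2 (2.04, SE 0.67, 0.0114), whose product phosphorylates eIF4E, and rps6ka3 (1.92, SE 0.61, 0.00971) were higher in tooth. The mTOR inhibitor gene tsc2 (-1.11, SE 0.36, edgeR adjusted p = 0.0112) was higher in taste bud. The mknk2 call was lost without M. zebra taste bud replicate 3 (edgeR adjusted p = 0.0536). The tsc2 log2FC was -0.90 when the 3 libraries richest in ribosomal messages were left out.

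Of the poly(A)-binding and cap-complex partners, 24 were in the table and 8 were tested, with 1 higher in tooth and 0 in taste bud (all genes tested: 32.6% and 20.2%). It was pdcd4, coding for an inhibitor of the eIF4A helicase, with a log2FC of 2.10 (SE 0.46, edgeR adjusted p = 0.00039) and 142 ± 63.1 CPM in tooth against 32.3 ± 15.9 CPM in taste bud (SD, n = 6 each). At that taste bud level pdcd4 passed the filter on low counts only through tooth. The genes dhx29 (log2FC 0.91, SE 0.44, edgeR adjusted p = 0.0852) and paip2b (0.83, SE 0.61, 0.256) did not pass. The dhx29 log2FC was 1.40 when the 3 libraries richest in ribosomal messages were left out.

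Of the genes for modifiers of translation factors, 12 were in the table and 4 were tested, with 1 higher in tooth and 2 in taste bud (all genes tested: 32.6% and 20.2%). The kinase gene pim1 (log2FC -3.27, SE 0.59, edgeR adjusted p = 3.87e-05) and n6amt2 (-2.10, SE 0.68, 0.0111), coding for a methyltransferase of eEF1A, were higher in taste bud, and dph2 (1.54, SE 0.60, 0.0337), a gene of the diphthamide pathway that modifies eEF2, was higher in tooth. The gene dph5 of the same pathway (0.49, SE 0.38, edgeR adjusted p = 0.291) did not pass. The n6amt2 call was lost without M. zebra taste bud replicate 3 (edgeR adjusted p = 0.0715), and the dph2 call held in 5 of the 12 fits that left out 1 library. The dph2 log2FC was 0.53 when the 3 libraries richest in ribosomal messages were left out. Of the mitochondrial translation factors, 13 were in the table and 1 was tested, mtif2 (-0.80, SE 0.32, edgeR adjusted p = 0.0371), which was higher in taste bud and kept its call in 6 of the 12. The mtif2 log2FC was -0.59 when the 3 libraries richest in ribosomal messages were left out.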

How the data were processed

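The authors deposited a table of whole-number read counts per gene feature, 1 column per library, with no normalization. Tools named in the submitters' processing notes, without saying what each did, were HTSeq 0.6.1, limma 3.20.9, edgeR 3.6.8, SAMtools 0.19 and TopHat2 2.0.9. Per the labels' protocols the library kit marks strand. For genome build, annotation and strand setting the sources used here give nothing, so reads of overlapping genes may be split or merged. Close copies of a factor gene may share reads in the same way.

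Genes were filtered by filterByExpr (minimum count 10, minimum total 15), leaving 2962, and fitted in R 4.3.3 with edgeR 4.0.16 (TMM, quasi-likelihood, 4 group means, all 12 libraries). A gene could pass this filter through the libraries of a single tissue. The 6 contrasts were the tissue difference over both species, the same in each species, the species difference in each tissue and the interaction. P-values are two-sided, Benjamini-Hochberg adjusted over 2962 genes, with a threshold of 0.05. The SE is the absolute log2FC divided by the square root of the F statistic. CPM uses TMM library sizes, and ratios are summed counts over summed TMM library sizes with 95% intervals. Shares use total counts.

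The members and gene lists were chosen with earlier results of these data known. Values in every library are given for the 6 members with the most counts and for those past the threshold (up to 10 per direction between tissues, up to 5 per species comparison), plus a few that are said to be singled out or that lie below the filter. Up to 4 genes are named per partner list, by absolute log2FC, and 1 gene that this rule names is not reported here. On simulated counts for the tissue contrast with 2962 genes, 13 of 100 genes changed 2-fold and 87 of 100 changed 4-fold were recovered, with 4 false calls among 104. The simulation changed far fewer genes than the 1564 called between tissues in the data. Adjusted p-values therefore set a different cut in the 2 cases, and the recovered shares do not give the power of the real contrast. Library pairs within a group differed by more than sampling noise (chi-square per degree of freedom 2.81 to 17.6 over 12 pairs), so none was merged. The alternatives were DESeq2 1.42.0 size factors and its Wald test, no filter, a replicate block, the ribosomal share as a covariate, leaving out the 3 libraries of highest ribosomal share, and leaving out each library. Leaving out those 3 leaves 1 L. fuelleborni taste bud library, which is assumed to vary like the other groups.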

Additional observations from a re-analysis of the deposited data

How the results depend on the processing

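Over 60 results of single genes, 1046 of 1073 alternative values kept their direction. The cause of the changes below was not tested. Leaving out 1 library gave 4 to 6 translation factor genes past the threshold between tissues, 1 to 6 in L. fuelleborni, 2 to 6 in M. zebra, 0 to 0 between species in tooth, 0 to 2 in taste bud and 0 to 0 in the interaction. These fits filtered genes anew, so that the number tested differed between them, and the calls over all genes changed as well. In L. fuelleborni the lowest count came beside 1027 of 3543 genes and the highest beside 1275 of 3396. In M. zebra the lowest came beside 1107 of 3728 genes. The ranges alone therefore do not show whether the translation factor genes changed apart from the rest. With no filter the count was 4 of 49 in L. fuelleborni, beside 1881 of 20692 genes. In M. zebra it was 3 of 49, beside 1557 of 20692 genes. With the ribosomal share as a covariate the count between species in taste bud was 0 of 20, beside 45 of 2962 genes. When the 3 libraries richest in ribosomal messages were left out, the eef1b2 log2FC there was 2.07.

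With a replicate block the count was 3 of 20 between tissues, beside 1192 of 2962 genes. In L. fuelleborni it was 0 of 20, beside 807 of 2962 genes. The eef1g edgeR adjusted p between tissues was 0.0680 with the block. The calls between tissues of eif3g (0.293), eif6 (0.164), ddit3 (0.112), dph2 (0.0844), eprs (0.485), etf1 (0.0993), mknk2 (0.0924), mtif2 (0.154), nars (0.0708), rps6ka3 (0.115) and tsc2 (0.0554) were lost with the block too, by their adjusted p. With no filter those of eif3g, eif6 (0.0881), ddit3 (0.0881), eprs (0.0766), mtif2 (0.167) and tsc2 (0.0634) were lost. Under DESeq2 size factors those of eif6, eprs (0.0987) and mtif2 (0.115) were lost and dhx29 passed (0.0364). Deviations of same-numbered libraries correlated at -0.20 to 0.24 over 9 pairs, 4 of them over 0.1. Of 12 libraries, 3 correlated best with their own number. Only 3 of the 9 pairs were of the same species, with correlations of -0.00754 to 0.236. Whether libraries of the same number shared an animal or a batch was not tested.

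With the most abundant feature left out of the total, the mean summed share in taste bud was 0.474% for L. fuelleborni and 0.346% for M. zebra. On TMM library sizes it was 0.436% for L. fuelleborni taste bud and 0.367% for M. zebra tooth, and without eef1g the M. zebra tooth value was 0.324%. Leaving out 1 library gave 0.307 to 0.452% in L. fuelleborni tooth, 0.355 to 0.408% in L. fuelleborni taste bud, 0.392 to 0.433% in M. zebra tooth and 0.262 to 0.310% in M. zebra taste bud.

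Reversals all concerned log2FC values that had not passed the test. For eif2s2 the value was 0.0926 under DESeq2 size factors, 0.0883 by the DESeq2 test and -0.48 to 0.0362 leaving out 1 library. For eif3a it was -0.10 with the replicate block, -0.0441 with the ribosomal covariate, -0.57 without the 3 libraries, and -0.40 to 0.16 leaving out 1 library. Leaving out 1 library also gave -0.81 to 0.0834 for eef1b2 between tissues, -0.0484 to 1.33 for eef1b2 in M. zebra, -0.11 to 1.58 for eif5 and -1.02 to 0.25 for slc3a2. Further reversals were eif4g1 (-0.000909 without the 3 libraries), paip2b (-0.18 with the replicate block) and slc3a2 (-0.14 with the covariate). The gene eif4g1 passed the filter in 12 of 18 alternatives. Depth limits the 27 untested genes most, since 15 to 104 counts over 12 libraries leave wide intervals.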
